A study of Rattus norvegicus with 11 samples.

Results

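Transcripts of 10 early genes were followed in rat primary hippocampal neurons that expressed a mutant linker histone, the wild-type linker histone or a fluorescent control protein. The genes were Egr1, Egr2, Egr3, Egr4, Fos, Jun, Junb, Arc, Npas4 and Nr4a1, taken by symbol, and all 10 were found among the 42172 genes of each library. The neurons came from CD (Sprague Dawley) IGS rats and were lysed at day 7 in vitro (DIV7). In 4 libraries they expressed H1.4 CFT, which is the linker histone H1.4 with a C-terminus frameshift tail (H1.4 CFT group), in 4 libraries exogenous wild-type H1.4 (WT H1.4 group) and in 3 libraries GFP (GFP group). The study calls the libraries biological replicates. The labels do not name the vector, the promoter or the species of the constructs, and every neuron carries the rat's own linker histone genes. The H1.4 constructs were thus expressed beside these genes, and the amount of endogenous H1.4 protein was not measured.

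Early genes are transcribed within minutes of a stimulus, without new protein synthesis, from promoters that are already accessible. In neurons calcium entry through synaptic receptors and channels, and growth factor signalling through the ERK kinase cascade, act on serum response factor and CREB at these promoters. Egr, Fos, Jun, Npas4 and Nr4a1 encode transcription factors, and Arc encodes a synaptic protein that moves AMPA receptors out of the membrane. Their transcripts are short-lived, and in culture their basal level is known to follow spontaneous firing and handling.

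Each library held 12070941 to 18846492 reads in genes, and levels are given as CPM (counts scaled to the size of the library, with TMM factors). Summed counts over all 11 libraries ran from 291 for Egr4 to 21553 for Jun, and no library gave fewer than 8 counts for any of the 10 genes. The endogenous H1.4 gene, H1f4, had 5 to 8 counts in H1.4 CFT, 1 to 5 in WT H1.4 and 0 to 2 in GFP libraries. The species of the constructs is not named, so these counts do not check the labels. The 9 neuronal marker genes (Map2, Tubb3, Snap25 and others) together took 2930 to 3467 CPM in H1.4 CFT, 4019 to 4209 CPM in WT H1.4 and 4134 to 4289 CPM in GFP libraries. Mitochondrial transcripts took 3.14% to 3.37% of gene counts in H1.4 CFT, 2.64% to 2.96% in WT H1.4 and 2.81% to 2.98% in GFP. Around the group means, the WT H1.4 library that went most closely with each H1.4 CFT library carried a number of the same pair, 1 and 2 or 3 and 4. So did the GFP library closest to each H1.4 CFT and WT H1.4 library numbered 2, 3 or 4. Those numbered 1 were not matched to GFP. No label names a batch, so results are also given within these number pairs.

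Most of the 10 genes did not pass the test in any comparison, and the 4 that did moved in both directions. A gene passed where the adjusted p of edgeR's quasi-likelihood test, with Benjamini-Hochberg adjustment over all 17294 genes tested, was under 0.05. All 10 genes were above the low-count filter. In H1.4 CFT relative to WT H1.4, Egr3 fell, Jun and Fos rose and 7 genes did not pass, while 36.0% of all genes tested passed in this comparison. In H1.4 CFT against GFP, Egr3 and Egr4 fell, Jun rose and 7 genes did not pass, against 29.5% of all genes tested. In WT H1.4 against GFP, Egr3 fell and 9 genes did not pass, against 0.943% of all genes tested. The shares of genes called are thus near the background in both H1.4 CFT comparisons. The median log2 fold change of the 10 genes was 0.0093 in H1.4 CFT relative to WT H1.4, -0.22 in H1.4 CFT against GFP and -0.31 in WT H1.4 against GFP. Over all genes tested these medians were 0.018, 0.011 and -0.0010. The last 2 comparisons share their 3 GFP libraries, so a GFP value that lies high moves both.

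**Figure D1:**
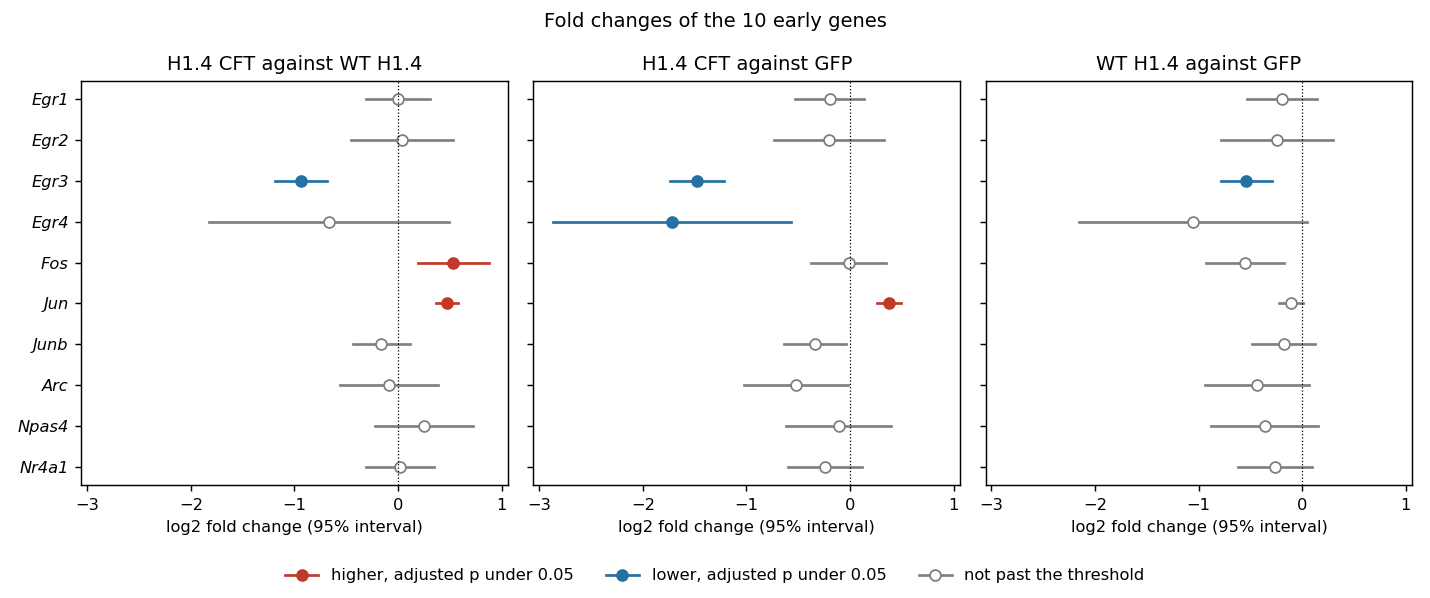
Log2 fold changes of the 10 early genes (x axis, points) with 95% intervals (lines) in the 3 comparisons, with filled points for genes past an adjusted p of 0.05. Egr3 lies left of 0 in all 3 panels (-0.94, -1.48 and -0.54), Jun lies right of 0 in the 2 panels for H1.4 CFT (0.48 and 0.37), and Egr4 has the widest intervals.

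Among the Egr genes, Egr3 passed in all 3 comparisons, with the lowest level in H1.4 CFT, an intermediate level in WT H1.4 and the highest in GFP. Egr3 is a zinc finger factor that binds the same GC-rich element as Egr1 and acts in the slower phase of the response to activity. Its level was 5.33, 6.35, 4.88 and 4.97 CPM in CFT 1 to 4, 10.5, 9.47, 11.3 and 9.88 CPM in WT 1 to 4, and 14.7, 13.2 and 16.8 CPM in GFP 2 to 4. The 3 groups did not overlap. Among all genes tested, 34.6% did not overlap for H1.4 CFT with WT H1.4, 35.5% for H1.4 CFT with GFP, and 12.2% for WT H1.4 with GFP. Means were 5.38 ± 0.676 CPM in H1.4 CFT, 10.3 ± 0.794 CPM in WT H1.4 and 14.9 ± 1.76 CPM in GFP (SD, n = 4, 4 and 3). Egr3 fell 1.915-fold in H1.4 CFT relative to WT H1.4 (log2 fold change -0.94, SE 0.120, adjusted p = 8.03e-06). Set beside GFP, the fall was 2.78-fold (a log2 value of -1.48 with SE 0.126, adjusted p = 1.53e-07), with the rank of 20 by p among the 17294 genes. Both calls held under every alternative tried. In WT H1.4 against GFP it fell 1.45-fold (a log2 value of -0.54 with SE 0.119, adjusted p = 0.0320), the only 1 of the 10 genes to pass there. That call is less firm, since the adjusted p became 0.0740 without WT 1, 0.104 without WT 2, 0.1001 without WT 4, 0.0603 without GFP 3 and 0.292 without GFP 4. The log2 fold change stayed between -0.61 and -0.44 over all omissions of a library, with adjusted p from 0.00434 to 0.292 over all alternatives. In this RNA of whole cultures, fewer cells of a type and less RNA per cell cannot be told apart. The summed neuronal markers were also lowest in H1.4 CFT, with a median log2 fold change of -0.35 against WT H1.4 and -0.31 against GFP over the 9 genes. Map2 and Tubb3 had the largest means of the 9 in H1.4 CFT, 904 and 1235 CPM. Relative to WT H1.4, 5 of the 9 were lower and 2 (Gad1 and Gad2) higher, against 19.2% lower and 16.7% higher of all genes tested. Against GFP, 6 were lower and 0 higher, against 16.2% lower and 13.3% higher of all genes. The part of the neuronal markers in the Egr3 values was not tested.

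Egr1, also called zif268 and the most used marker of neuronal activity in this family, showed no such order. It had 14.6 to 18.7 CPM in H1.4 CFT, 13.9 to 19.5 CPM in WT H1.4 and 13.4 to 22.5 CPM in GFP libraries. The 3 ranges overlapped. In H1.4 CFT relative to WT H1.4 the log2 fold change was -0.00053, with a 95% interval from -0.31 to 0.31 (adjusted p = 0.998). Against GFP it was -0.19 in H1.4 CFT (95% interval -0.53 to 0.14, adjusted p = 0.385) and -0.19 in WT H1.4 (-0.53 to 0.14, adjusted p = 0.707). The interval against WT H1.4 does not reach the -0.94 seen for Egr3. Without GFP 2, the lowest GFP library, Egr1 passed as lower in H1.4 CFT than in GFP (log2 fold change -0.38, adjusted p = 0.0425, with a range of 0.0304 to 0.875 over all alternatives). The ratio of Egr3 to Egr1 counts within a library, which no scaling can change, was 0.261 to 0.399 in H1.4 CFT, 0.508 to 0.729 in WT H1.4 and 0.590 to 1.10 in GFP. The H1.4 CFT ratios lay below those of both other groups, and the WT H1.4 and GFP ratios overlapped. The ratio was chosen after the values were seen and is given as a description.

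Egr2, also called Krox20 and known for its role in peripheral myelination, gave few reads. Its means were 1.90 ± 0.162 CPM in H1.4 CFT, 1.84 ± 0.486 CPM in WT H1.4 and 2.19 ± 0.508 CPM in GFP. Its log2 fold change in H1.4 CFT relative to WT H1.4 was 0.04 (95% interval -0.45 to 0.53, adjusted p = 0.913), an interval that leaves room for changes of 1.37-fold down to 1.44-fold up. It did not pass against GFP either, with adjusted p of 0.593 in H1.4 CFT and 0.787 in WT H1.4. Its variance between libraries of a group was 1.26 times that of counting alone, near the limit set by its 353 reads.

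Egr4, a family member expressed mainly in neurons, was the most variable of the 10 genes, with an 11.2-fold range over the libraries. Its level was 1.13, 0.787, 1.13 and 0.570 CPM in CFT 1 to 4, 0.433, 1.30, 2.20 and 1.82 CPM in WT 1 to 4, and 1.02, 2.93 and 4.86 CPM in GFP 2 to 4. The high values lay in GFP 3 and GFP 4, while GFP 2 lay within the H1.4 CFT range. Counts ran from 8 in WT 1 to 81 in GFP 4, and the variance within groups was 7.94 times that of counting. Egr4 fell 3.29-fold in H1.4 CFT against GFP (a log2 value of -1.72 with SE 0.529, adjusted p = 0.0276). The call was lost without CFT 2 (adjusted p = 0.0677), CFT 4 (0.0790), GFP 3 (0.0655) or GFP 4 (0.162). The log2 fold changes in these 4 fits were -1.66, -1.55, -1.73 and -1.10. Within libraries numbered 1 and 2 it was -0.08 (adjusted p = 0.946), with 1 GFP library on that side. Over all alternatives the adjusted p ran from 5.76e-08 to 0.946. In H1.4 CFT relative to WT H1.4 the log2 fold change was -0.67 (95% interval -1.82 to 0.49, adjusted p = 0.360), and in WT H1.4 against GFP it was -1.05 (95% interval -2.15 to 0.05, adjusted p = 0.459).

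**Figure D2:**
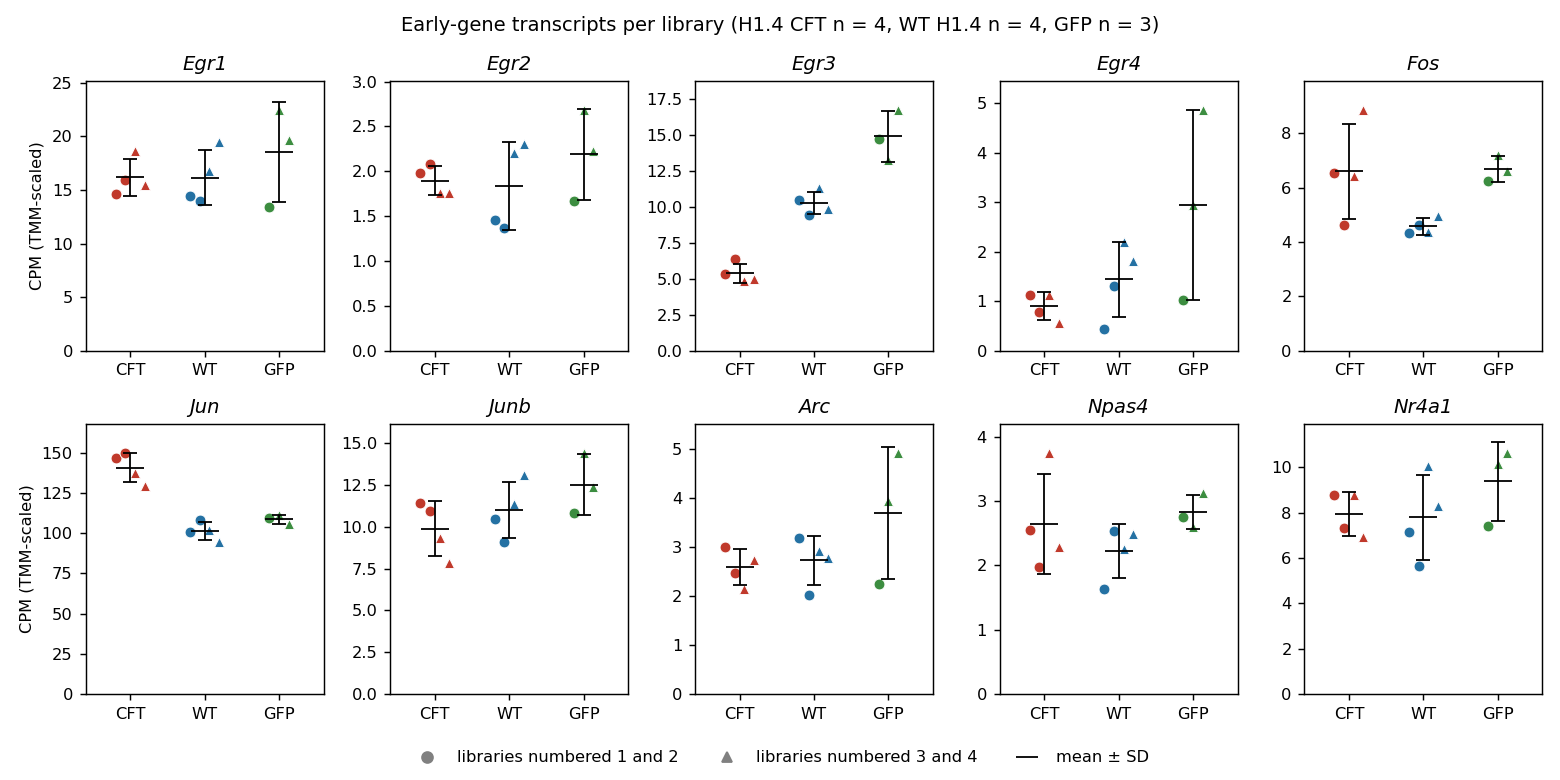
CPM of each early gene (y axis, from 0) in every library of H1.4 CFT, WT H1.4 and GFP, with circles for libraries numbered 1 and 2, triangles for 3 and 4, and bars for mean ± SD. The groups separate for Egr3 (4.88 to 6.35, 9.47 to 11.3 and 13.2 to 16.8 CPM), H1.4 CFT lies above the others for Jun, and the other panels overlap in both H1.4 CFT comparisons. Of all genes tested, 34.6% did not overlap for H1.4 CFT with WT H1.4 and 35.5% for H1.4 CFT with GFP.

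The Egr genes are textbook targets of serum response factor, so the letters before their start sites are shown for the 3 of the 4 that the RefSeq promoter table (GRCr8 build) holds. The sequences run 5′ to 3′ on the gene's strand, from 250 bases before the annotated start to 50 bases after it, and the files' own build, mRatBN7.2, was not used for them. Capitals mark CArG boxes, the element of serum response factor, and TGACG, the core of the CREB element (CGTCA when read from the other strand). Egr1 lies on the plus strand at chr18:26736828-26737127, Egr2 on the minus strand at chr20:21054392-21054691 and Egr4 on the minus strand at chr4:119607768-119608067.
Egr1: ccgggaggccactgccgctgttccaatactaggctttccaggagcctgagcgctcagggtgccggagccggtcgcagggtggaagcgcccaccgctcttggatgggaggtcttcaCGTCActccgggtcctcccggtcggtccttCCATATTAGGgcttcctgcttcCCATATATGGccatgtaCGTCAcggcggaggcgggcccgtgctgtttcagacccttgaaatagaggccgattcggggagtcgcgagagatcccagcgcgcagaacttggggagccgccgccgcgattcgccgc
Egr2: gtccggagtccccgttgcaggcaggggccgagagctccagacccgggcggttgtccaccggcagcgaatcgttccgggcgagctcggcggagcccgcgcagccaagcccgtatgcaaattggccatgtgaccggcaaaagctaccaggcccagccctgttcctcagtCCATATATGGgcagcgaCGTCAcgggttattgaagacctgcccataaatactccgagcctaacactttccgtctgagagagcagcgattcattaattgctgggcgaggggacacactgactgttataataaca
Egr4: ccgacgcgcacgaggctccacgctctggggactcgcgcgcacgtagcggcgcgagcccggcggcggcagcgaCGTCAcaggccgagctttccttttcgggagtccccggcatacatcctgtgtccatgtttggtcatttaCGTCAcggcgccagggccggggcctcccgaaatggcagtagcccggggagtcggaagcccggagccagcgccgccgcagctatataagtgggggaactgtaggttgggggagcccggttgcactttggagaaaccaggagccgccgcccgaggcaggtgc
The Egr1 window held 2 CArG boxes and 2 CREB cores, the Egr2 window 1 CArG box and 1 CREB core, and the Egr4 window no CArG box and 2 CREB cores. Egr1 and Egr2 had the same CArG box letters at position -83 and a CREB core at position -66, counted from the start site with -1 as the base before it. The CArG search, on both strands, matched 1.64% of the 33469 promoter windows in the table, and the CREB core matched 21.2%. A full CREB element (TGACGTCA, which holds the CREB core) matched 1.83% of windows and none of these 3. The same search was run on TGANTCA, the AP-1 element, with 7.33% of windows, and on GCGNGGGCG, an Egr element, with 4.98%. Among the 6 early genes in the table, only the Nr4a1 window matched the Egr element and none matched the AP-1 element. Egr3, Fos, Jun and Arc are named only. A match describes letters and does not show binding in these neurons.

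The AP-1 genes Jun and Fos were higher in H1.4 CFT when set beside WT H1.4, while Junb did not pass. Jun encodes the AP-1 subunit c-Jun, a target of JNK kinases in stressed and growing axons. Its level was 147, 150.0, 137 and 129.7 CPM in CFT 1 to 4, 101, 108, 102 and 94.4 CPM in WT 1 to 4, and 109.5, 111 and 106 CPM in GFP 2 to 4. The lowest H1.4 CFT value was above the highest value of both other groups. The WT H1.4 and GFP values overlapped. Jun rose 1.39-fold in H1.4 CFT relative to WT H1.4 (log2 fold change 0.48, SE 0.0509, adjusted p = 1.06e-06) and by 1.295-fold when set beside GFP (a log2 value of 0.37 with SE 0.0556, adjusted p = 5.37e-05). Both calls held under every alternative tried, with log2 fold changes from 0.44 to 0.52 and from 0.30 to 0.44. For WT H1.4 against GFP the log2 fold change was -0.10 (95% interval -0.22 to 0.01, adjusted p = 0.501).

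Fos, which encodes c-Fos, the partner of Jun proteins in AP-1, had 6.52, 4.61, 6.41 and 8.86 CPM in CFT 1 to 4. It had 4.33, 4.63, 4.35 and 4.97 CPM in WT 1 to 4, and 6.24, 7.21 and 6.61 CPM in GFP 2 to 4. CFT 4 was the highest library and CFT 2 lay within the WT H1.4 range. Fos rose 1.45-fold in H1.4 CFT relative to WT H1.4 (log2 fold change 0.54, SE 0.164, adjusted p = 0.0148). Without CFT 4 the log2 fold change was 0.36 and the call was lost (adjusted p = 0.0885, with a range of 0.000845 to 0.255 over all alternatives). Within libraries numbered 1 and 2 it was 0.32 (adjusted p = 0.255). Against GFP, Fos in H1.4 CFT had a log2 fold change of -0.01 (95% interval -0.37 to 0.35, adjusted p = 0.967). In WT H1.4 against GFP the log2 fold change was -0.55 (95% interval -0.92 to -0.17) with an unadjusted p of 0.00645 and an adjusted p of 0.186. All WT H1.4 libraries lay below all GFP libraries for Fos, as they did for Egr3 and Npas4, while 12.2% of all genes tested did not overlap in that comparison. The astrocyte marker list (8 genes, Gfap and Gja1 among them) summed to 1879 to 1943 CPM in H1.4 CFT, 1452 to 1560 CPM in WT H1.4 and 1840 to 1973 CPM in GFP. Of these 8, 4 were higher and 0 lower in H1.4 CFT relative to WT H1.4 (median 0.37). In WT H1.4 against GFP, 4 were lower, 0 higher and 4 did not pass (median -0.32). Not all went this way, since Aldoc had means of 246, 276 and 266 CPM in H1.4 CFT, WT H1.4 and GFP. The mural and fibroblast markers summed to 68.7 to 77.3 CPM in H1.4 CFT, 58.7 to 74.5 CPM in WT H1.4 and 87.3 to 99.1 CPM in GFP. Of the 7 tested, 3 (Col1a1, Col1a2 and Col3a1) were higher and 1 (Dcn) lower in H1.4 CFT relative to WT H1.4 (median 0.60), and 3 were lower and 0 higher in WT H1.4 against GFP (median -0.93). Over all genes these shares were 16.7% higher and 19.2% lower in the first comparison, and 0.509% lower and 0.434% higher in the second. Fos and the astrocyte sum were lowest in WT H1.4, while the mural and fibroblast sums of H1.4 CFT and WT H1.4 overlapped. The part of these markers in the Fos values was not tested.

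Junb encodes JunB, an AP-1 subunit that often acts against c-Jun. It had 7.82 to 11.5 CPM in H1.4 CFT, 9.11 to 13.1 CPM in WT H1.4 and 10.8 to 14.4 CPM in GFP libraries. The groups overlapped. Its log2 fold change was -0.16 in H1.4 CFT relative to WT H1.4 (95% interval -0.44 to 0.12, adjusted p = 0.375) and -0.34 in H1.4 CFT against GFP (95% interval -0.64 to -0.04, adjusted p = 0.0853). Against GFP it passed without CFT 1 (adjusted p = 0.0430) and with no low-count filter (0.0379), and the range over all alternatives was 0.000224 to 0.883. The ratio of Jun to Junb counts within a library was 12.8 to 16.6 in H1.4 CFT, 7.21 to 11.9 in WT H1.4 and 7.72 to 10.1 in GFP. The H1.4 CFT ratios lay above all others. This ratio, too, was chosen after the values were seen and is given as a description.

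None of the remaining Fos and Jun family genes passed as higher in H1.4 CFT. Fosl1, which encodes Fra-1, fell 1.401-fold in H1.4 CFT relative to WT H1.4 (10.96 ± 1.76 against 15.3 ± 1.36 CPM, adjusted p = 0.00207). It did not pass against GFP (adjusted p = 0.373). Fosl2, Jund and Fosb did not pass in any comparison. Jund, the AP-1 subunit with a steady basal level, had a log2 fold change of 0.11 in H1.4 CFT relative to WT H1.4 (SE 0.0537, adjusted p = 0.111) and 0.13 against GFP (SE 0.0585, adjusted p = 0.113). Fosb gave 0.337 to 1.76 CPM in H1.4 CFT, 0.434 to 1.05 CPM in WT H1.4 and 0.180 to 0.922 CPM in GFP, too few reads for a narrow interval.

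Arc, Npas4 and Nr4a1, which respond to synaptic activity, did not pass in any comparison with all libraries. Arc means were 2.59 ± 0.364 CPM in H1.4 CFT, 2.73 ± 0.501 CPM in WT H1.4 and 3.71 ± 1.35 CPM in GFP. GFP 3 and GFP 4, with 3.94 and 4.92 CPM, lay above every other library, and GFP 2, with 2.25 CPM, lay within both H1.4 groups. The log2 fold change of Arc was -0.52 in H1.4 CFT against GFP (SE 0.240, adjusted p = 0.109). With the replicate number as a block Arc passed narrowly (log2 fold change -0.57, adjusted p = 0.0490). Without GFP 2 the log2 fold change was -0.78 (adjusted p = 0.0165), and the range over all alternatives was 0.00441 to 0.660. In H1.4 CFT relative to WT H1.4 it was -0.08 (95% interval -0.56 to 0.39, adjusted p = 0.800). In the GRCr8 gene table Arc overlaps LOC134479925, which has no entry in the files, and the other 9 genes overlap no gene.

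Npas4, a factor that neurons induce on calcium entry and that shapes inhibitory synapses, had 1.97 to 3.74 CPM in H1.4 CFT, 1.62 to 2.53 CPM in WT H1.4 and 2.5995 to 3.12 CPM in GFP libraries. Its log2 fold change was 0.25 in H1.4 CFT relative to WT H1.4 (95% interval -0.22 to 0.72, adjusted p = 0.412) and -0.11 against GFP (-0.61 to 0.39, adjusted p = 0.774). These intervals leave room for changes of up to 1.65-fold up relative to WT H1.4 and 1.53-fold down against GFP. Npas4 had 458 reads in all libraries, and its variance within groups was 2.14 times that of counting. The log2 fold change in WT H1.4 against GFP was -0.36 (95% interval -0.88 to 0.16, adjusted p = 0.623).

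Nr4a1, also called Nur77, an orphan nuclear receptor, had 6.94 to 8.79 CPM in H1.4 CFT, 5.64 to 10.1 CPM in WT H1.4 and 7.40 to 10.6 CPM in GFP. Its log2 fold change in H1.4 CFT relative to WT H1.4 was 0.02 (95% interval -0.31 to 0.35, adjusted p = 0.937). Against GFP it was -0.24 in H1.4 CFT (adjusted p = 0.310) and -0.26 in WT H1.4 (adjusted p = 0.609). Its relatives moved by small amounts. Nr4a3 fell 1.23-fold in H1.4 CFT relative to WT H1.4 (227 ± 18.7 against 278 ± 10.9 CPM, adjusted p = 0.000149). It did not pass against GFP (adjusted p = 0.221). Nr4a2, which encodes the dopamine neuron factor Nurr1, fell 1.2495-fold in H1.4 CFT against GFP (27.9 ± 4.00 against 34.8 ± 2.19 CPM, adjusted p = 0.0118) and did not pass relative to WT H1.4 (adjusted p = 0.457).

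In WT H1.4 and in GFP the mean of 9 of the 10 genes, all but Jun, was higher in libraries numbered 3 and 4 than in those numbered 1 and 2. The gap was small for Egr3, which averaged 10.6 and 9.98 CPM in WT H1.4 and 15.002 and 14.7 CPM in GFP, in this order of the number pairs. Small gaps were also seen for Fos in WT H1.4 (4.66 and 4.48 CPM) and Npas4 in GFP (2.86 and 2.76 CPM). Egr1 averaged 18.1 CPM in WT 3 and WT 4 and 14.2 CPM in WT 1 and WT 2, and 21.1 CPM in GFP 3 and GFP 4 with 13.4 CPM in GFP 2. In H1.4 CFT, Egr1, Fos and Npas4 were higher in numbers 3 and 4 and the other 7 genes were lower, and Junb averaged 8.59 CPM there with 11.2 CPM in numbers 1 and 2. Egr1 in H1.4 CFT averaged 17.1 and 15.3 CPM. Within numbers 3 and 4, H1.4 CFT against GFP gave 7 of the 10 genes past the threshold, with 6 lower (Egr1, Egr3, Egr4, Junb, Arc and Nr4a1) and Jun higher, against 38.6% of all genes tested. Within numbers 1 and 2 it gave 2 (Egr3 lower and Jun higher), against 19.2% of all genes, with GFP 2 as the single GFP library, whose spread is taken from the other groups. Relative to WT H1.4, 5 of the 10 genes passed within numbers 3 and 4, against 43.3% of all genes, and 2 within numbers 1 and 2, against 27.4%. Within numbers 3 and 4, Junb (adjusted p = 0.00246) and Egr4 (adjusted p = 0.00435) were lower beside the 3 called in all libraries. In WT H1.4 against GFP, 2 of the 10 genes passed within numbers 3 and 4, against 9.22% of all genes, and 0 within numbers 1 and 2, against 1.21%. Egr4 passed as lower in that comparison within numbers 3 and 4 (adjusted p = 0.0236) and with no low-count filter (adjusted p = 0.0306).

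The difference between the number pairs was tested as an interaction over all genes, a test added after the values were seen. In H1.4 CFT relative to WT H1.4 it passed for Junb, with a log2 fold change of -0.51 within numbers 3 and 4 and 0.18 within numbers 1 and 2 (difference -0.69, SE 0.201, adjusted p = 0.0145), while 10.2% of all genes tested passed. For the other 9 genes the adjusted p of this difference ran from 0.129 (Egr4) to 0.863 (Npas4). At an unadjusted p under 0.05 there were 3 (Egr4, Junb and Nr4a1), against 21.6% of all genes. In H1.4 CFT against GFP none of the 10 genes passed (lowest adjusted p 0.0546, for Egr4), against 4.18% of all genes tested. At an unadjusted p under 0.05 there were 4 (Egr1, Egr4, Junb and Arc), against 15.7% of all genes. In WT H1.4 against GFP none passed, against 1.47% of all genes, and 1 (Arc) had an unadjusted p under 0.05, against 12.5% of all genes. Egr3 and Jun kept their direction in both number pairs in all 3 comparisons. In H1.4 CFT relative to WT H1.4, Fos (0.72 within numbers 3 and 4, 0.32 within 1 and 2) and Npas4 (0.34 and 0.15) also kept theirs. Against GFP, Egr4 kept its direction in H1.4 CFT (-2.23 and -0.08). In WT H1.4 against GFP, all of these genes but Egr1 and Arc kept theirs. Egr3 had a log2 fold change of -1.10 within numbers 3 and 4 and -0.78 within numbers 1 and 2 for H1.4 CFT relative to WT H1.4, and Jun had 0.44 and 0.51.

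**Figure D3:**
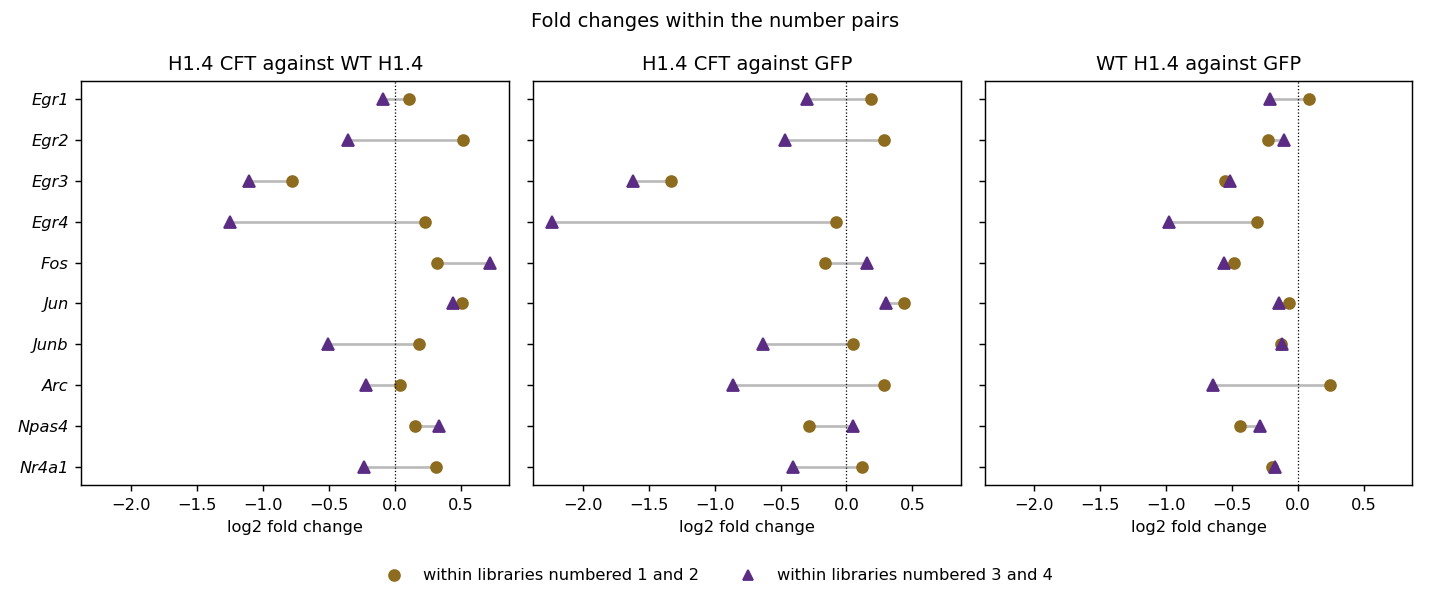
Log2 fold change of each early gene (x axis) within libraries numbered 1 and 2 (circles) and within those numbered 3 and 4 (triangles), for the 3 comparisons. For H1.4 CFT against GFP, Egr1, Egr2, Junb, Arc and Nr4a1 lie right of 0 within numbers 1 and 2 and left of 0 within 3 and 4. Fos and Npas4 lie left of 0 within numbers 1 and 2 and right of 0 within 3 and 4. Egr3 (-1.33 and -1.62), Egr4 (-0.08 and -2.23) and Jun (0.44 and 0.30) stay on 1 side.

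Around the group means, the same genes varied together from library to library. Over the 11 libraries, and after subtracting each group's mean, the correlation of log2 CPM was 0.81 between Egr2 and Junb, 0.78 between Egr1 and Egr2, 0.77 between Egr2 and Nr4a1, 0.70 between Egr4 and Nr4a1 and 0.69 between Egr1 and Nr4a1. Egr3 did not vary with Egr1 in this way (-0.13), and Fos varied against Egr3 (-0.69) and Jun (-0.66). Of the 45 pairs, 30 were above 0, and the median was 0.22. These values are descriptions over few libraries that share number pairs.

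Over all 11 libraries, with group differences included, the 3 genes whose log2 CPM went most closely with Egr3 were Cnksr2, H1f2 and Synpo, each with a Pearson correlation of 0.98. Those closest to Jun were Yjefn3, Actn4 and Smarcd3, with 0.98, 0.98 and 0.97. For Fos they were Gpcpd1 (0.92), Fam50a (0.91) and Col8a2 (0.90), and for Egr1 they were Lrrn1, Bloc1s1 and Fbxl7, with 0.91, 0.91 and 0.90. For the other 6 genes the closest were Stub1, Fastk and Ctsd for Egr2 (0.87 to 0.90), Mylip, Ajap1 and Enho for Egr4 (0.90 to 0.91), and Unc45a, Osbpl10 and Chchd4 for Junb (0.90 to 0.91). For Arc they were Dctn2, Mpc1 and Sod1 (0.85 to 0.93), for Npas4 Ccs, Kifc1 and Abcd2 (0.836 to 0.844), and for Nr4a1 Sirt7, Stub1 and Pcp2 (0.86 to 0.91). The search covered 12422 genes with a gene symbol and not a locus identifier and with a mean of at least 2 CPM. Taking the 3 highest of so many correlations over 11 libraries gives high values by itself, and shared regulation was not tested. The points share groups and number pairs.

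Other genes around the early response were read from 6 lists, chosen like the 10 genes with earlier results of these data known. Genes that depend on ERK signalling and feed back on it fell in the largest share among the 6 lists. In H1.4 CFT relative to WT H1.4, 8 of 13 fell, 0 rose and 5 did not pass, with a median log2 fold change of -0.25, against 19.2% lower and 16.7% higher of all genes tested. In H1.4 CFT against GFP, 9 of 13 fell, 0 rose and 4 did not pass (median -0.28), against 16.2% lower and 13.3% higher of all genes. Dusp6, the phosphatase that switches off ERK, fell 1.73-fold relative to WT H1.4 (23.3 ± 1.44 against 40.3 ± 2.79 CPM, adjusted p = 6.96e-07), while the fall set beside GFP was 1.84-fold (adjusted p = 8.31e-07). Etv1 and Etv5, ETS factors downstream of ERK, fell 1.32-fold and 1.23-fold against WT H1.4, and Dusp4 fell 1.19-fold. None of the 13 passed in WT H1.4 against GFP (median -0.018), where 0.509% of all genes were lower and 0.434% higher.

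Delayed activity-regulated genes, many of which encode secreted or synaptic proteins, also fell in part. Of 15 genes, 7 fell, 0 rose and 8 did not pass in H1.4 CFT relative to WT H1.4 (median -0.22), and 8 fell, 1 rose and 6 did not pass against GFP (median -0.35). Over all genes tested, 19.2% were lower and 16.7% higher relative to WT H1.4, and 16.2% lower and 13.3% higher against GFP. The largest fall named was in Acan, the perineuronal net protein aggrecan, 2.75-fold relative to WT H1.4 (1.60 ± 0.373 against 4.44 ± 1.31 CPM, adjusted p = 0.000107). Pcsk1, a prohormone convertase, fell 1.89-fold against WT H1.4 and 2.36-fold against GFP. Syt4, a vesicle synaptotagmin, fell 1.75-fold (378 ± 62.5 against 662 ± 26.0 CPM, adjusted p = 0.000168), and Nrn1, neuritin, fell 1.31-fold against WT H1.4. Vgf, a secreted granin-like protein, fell 1.72-fold in H1.4 CFT against GFP (51.4 ± 3.44 against 88.6 ± 8.28 CPM, adjusted p = 1.57e-07). Vgf was also the 1 gene of the list that fell in WT H1.4 against GFP, 1.399-fold (adjusted p = 0.00115). Most of the neuronal markers moved in the same direction as both of these lists, with 5 of 9 lower and 2 (Gad1 and Gad2) higher relative to WT H1.4 and 6 of 9 lower against GFP. Of the 8 astrocyte markers, 4 were higher relative to WT H1.4 and 1 against GFP. The part of these markers in the list counts was not tested. Of the 6 microglial markers, 2 had enough reads to test: P2ry12 fell (7.55 against 11.4 CPM, adjusted p = 0.00195) and Csf1r rose (1.13 against 0.433 CPM, adjusted p = 0.00906), both relative to WT H1.4, and Cx3cr1 had 7 counts in all libraries. Of the 6 endothelial markers, 4 were tested. Tek rose relative to WT H1.4 (3.51 against 1.07 CPM, adjusted p = 1.62e-05), Kdr, Pecam1 and Flt1 did not pass, and Cdh5 had 10 counts in all libraries.

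The other immediate early genes moved both ways. Of 36, 9 fell, 4 rose and 23 did not pass in H1.4 CFT relative to WT H1.4 (median 0.020), and 7 fell, 6 rose and 23 did not pass against GFP (median 0.017). The shares over all genes were 19.2% lower and 16.7% higher relative to WT H1.4, and 16.2% lower and 13.3% higher against GFP. Plk2, a kinase of synaptic scaling, fell 1.39-fold relative to WT H1.4 (92.1 ± 3.60 against 128 ± 9.28 CPM, adjusted p = 3.64e-06). Its fall set beside GFP was also 1.39-fold (adjusted p = 1.28e-05). Ptgs2, the inducible cyclooxygenase, fell 3.81-fold against WT H1.4 and 4.72-fold against GFP, at only 0.407 ± 0.272 CPM in H1.4 CFT, with 1.55 ± 0.460 CPM in WT H1.4 and 1.92 ± 0.246 CPM in GFP. Btg1, an antiproliferative factor, rose 1.19-fold in WT H1.4 against GFP and was the 1 gene of the list to pass there (adjusted p = 0.0388).

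Kinases and scaffolds upstream moved in both directions, with more falls. The list of 25 genes holds the ERK and JNK cascade and also the p38 kinase gene Mapk14. In H1.4 CFT relative to WT H1.4, 10 fell, 2 (Mapk14 among them) rose and 13 did not pass (median -0.078). Against GFP, 8 fell, 4 (Mapk14 among them) rose and 13 did not pass (median -0.072). Of all genes tested, 19.2% were lower and 16.7% higher relative to WT H1.4, and 16.2% lower and 13.3% higher against GFP. Rps6ka2, an RSK kinase that ERK activates, fell 1.87-fold relative to WT H1.4 (30.6 ± 4.77 against 57.1 ± 4.26 CPM, adjusted p = 6.65e-06). Its fall set beside GFP was 1.83-fold. Rps6ka1 and Braf fell 1.38-fold and 1.27-fold against WT H1.4. Mapk14, the p38 kinase, rose 1.32-fold in H1.4 CFT (adjusted p = 3.83e-06) and 1.15-fold in WT H1.4 (adjusted p = 0.0380), each against GFP.

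Most factors that act on the early promoters did not pass. The list holds 21 genes, namely transcription factors, coactivators, the deacetylases Hdac4 and Hdac5 and the kinase Camk4. In H1.4 CFT relative to WT H1.4, 4 rose, 1 fell and 16 did not pass (median 0.035). Against GFP, 5 rose, 1 fell and 15 did not pass (median 0.053). All genes tested gave 16.7% higher and 19.2% lower relative to WT H1.4, and 13.3% higher and 16.2% lower against GFP. Mef2d, an activity-regulated MADS factor, rose 1.16-fold relative to WT H1.4 (122 ± 4.28 against 105 ± 2.84 CPM, adjusted p = 0.000626). Its rise set beside GFP was 1.24-fold. Atf1 and the coactivator gene Crebbp rose 1.20-fold and 1.09-fold against WT H1.4. Camk4, the kinase that phosphorylates CREB, fell 1.122-fold against WT H1.4 and 1.20-fold against GFP. None of the 21 passed in WT H1.4 against GFP.

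Among the protein partners of the early factors, 16 of 19 genes had enough reads to test, 7 fell, 2 rose and 7 did not pass in H1.4 CFT relative to WT H1.4 (median -0.043). Against GFP 6 fell, 1 rose and 9 did not pass (median -0.044). Among all genes tested, 19.2% were lower and 16.7% higher relative to WT H1.4, and 16.2% lower and 13.3% higher against GFP. Nab1, a corepressor that binds Egr proteins, fell 1.32-fold relative to WT H1.4 (32.7 ± 2.54 against 43.1 ± 3.55 CPM, adjusted p = 0.000453). Jdp2, which dimerises with Jun proteins and represses AP-1, fell 1.66-fold relative to WT H1.4 (8.49 ± 0.830 against 14.0 ± 1.79 CPM, adjusted p = 6.60e-05). Rxrg, a retinoid X receptor, the kind that pairs with Nr4a1, fell 1.88-fold against WT H1.4 and 1.79-fold against GFP, and Atf4 fell 1.37-fold and 1.28-fold. None of the 16 passed in WT H1.4 against GFP.

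**Figure D4:**
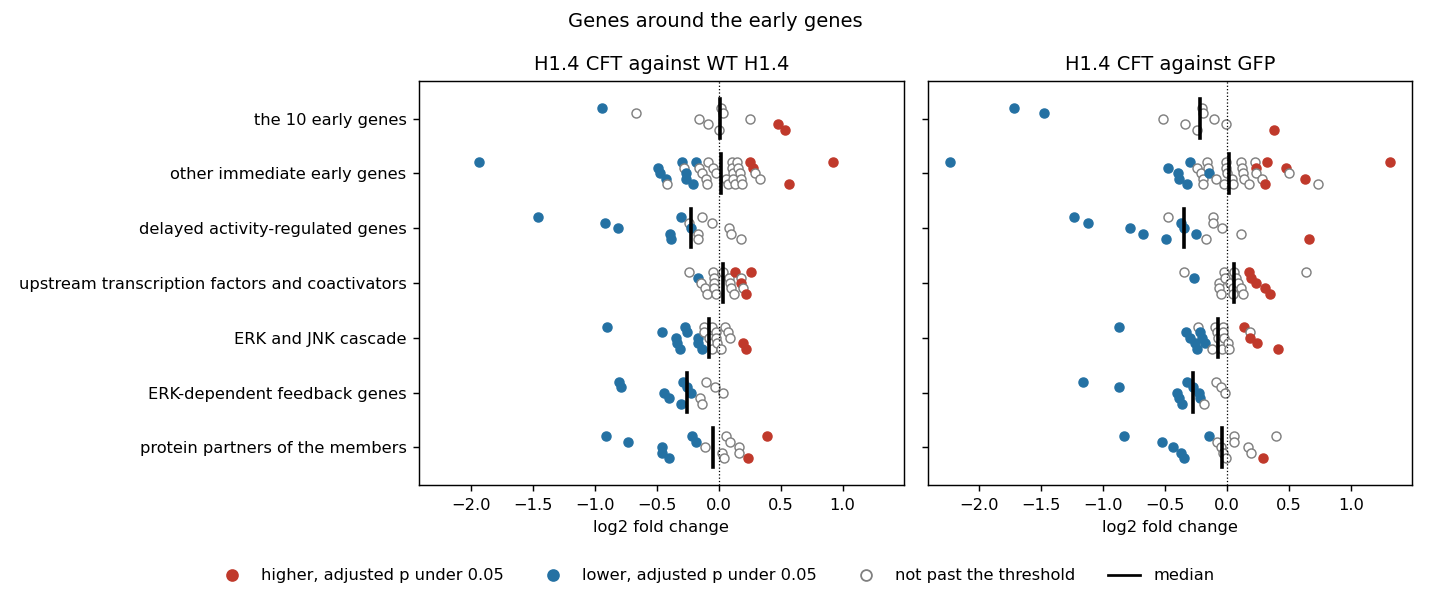
Log2 fold changes (x axis) of the 10 early genes and of every tested gene in the 6 surrounding lists, for H1.4 CFT relative to WT H1.4 and against GFP, with filled points past an adjusted p of 0.05 and black lines at the medians. No ERK-dependent feedback gene passed on the right of 0 (medians -0.25 and -0.28), whereas the 10 early genes lie on both sides.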

How the data were processed

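The data are RNA-seq counts of 11 libraries. Per the submitters' processing notes, the tools were STAR 2.7.2b and HTSeq 0.10.0 and the genome build was mRatBN7.2. Each deposited value is a raw count for a gene symbol, while the annotation release and the strand setting are not given in the sources used here. Of all reads, 45.9% to 46.9% were assigned to genes and 45.2% to 46.0% were listed by the authors' counter under no feature. The 5 summary entries were left out of library sizes and tests.

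The test was that of edgeR 4.0.16 in R 4.3.3. Genes were filtered by filterByExpr (minimum count 10, minimum total 15), scaled by TMM and fitted in all 11 libraries together with a term for group, by the robust quasi-likelihood test with 8 residual degrees of freedom, with Benjamini-Hochberg adjustment over 17294 genes. Intervals are 95% intervals of the fitted log2 fold change. The script was tested on simulated data with known fold changes. The members, the 6 lists and the tests were chosen with earlier results of these data known. All 10 members are named, and of each list up to 4 genes past the threshold with the smallest p for H1.4 CFT relative to WT H1.4 and up to 2 for each other comparison. One gene that this rule names is not reported here. The remaining genes of the Fos, Jun and Nr4a families and the count ratios were added after the values were seen. Bmal1 was matched as Arntl.

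Equal replicate numbers were checked by correlating residual log2 CPM across genes. At equal numbers, 1 to 4, H1.4 CFT with WT H1.4 gave correlations of 0.149, 0.174, 0.192 and 0.142. With the GFP libraries, at numbers 2 to 4, H1.4 CFT gave 0.255, 0.124 and 0.163, while WT H1.4 gave 0.206, 0.113 and 0.0927. The closest library carried the equal number for CFT 2 (both comparisons), CFT 3 (WT H1.4), CFT 4 (GFP) and WT 2 (GFP). In the remaining cases it carried the other number of the pair, 1 and 2 or 3 and 4. These values thus do not show pairing by single numbers. Other settings were RLE scaling, DESeq2 1.42.0, limma-voom (limma 3.58.1), no filter, a floor of 5 CPM in 3 libraries, a replicate block, only the groups compared, a non-robust spread, each library left out, each number pair alone and the number pair as a term.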

Additional observations from a re-analysis of the deposited data

Results flagged for a closer look

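Junb differed between the number pairs in H1.4 CFT relative to WT H1.4. The log2 fold change within libraries numbered 3 and 4 was lower by 0.69 than within those numbered 1 and 2 (difference -0.69, SE 0.201, edgeR adjusted p = 0.0145), with 2 libraries of each group in each pair. The test was added after the values were seen, and no label says what the numbers stand for. In groups of 4 libraries, 0 of 20 sets of CPM values of the 10 genes held a library far from the rest by Dixon's 95% limit.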

How the results depend on the processing

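Of 648 values of the 10 genes under the alternatives, 622 kept their side of the threshold, 13 lost and 13 gained a call, and 38 values that did not pass changed sign. No called value changed sign. The number of early genes called in H1.4 CFT relative to WT H1.4 was 3, and 5 within numbers 3 and 4. In H1.4 CFT against GFP it was 3, and 7 within numbers 3 and 4, with 2 to 5 when single libraries were left out. In WT H1.4 against GFP it was 1, with 0 to 1 when single libraries were left out, 2 with no low-count filter, 0 within numbers 1 and 2 and 2 within numbers 3 and 4. Over all genes, H1.4 CFT against GFP gave 5098 calls, with 3323 within numbers 1 and 2 and 6679 within numbers 3 and 4. H1.4 CFT relative to WT H1.4 gave 6218, with 4731 and 7488 in the same number pairs. WT H1.4 against GFP gave 163 calls, with 268 in DESeq2, 462 with no filter, 357 in only the groups compared, 1595 within numbers 3 and 4, 404 with the number pair as a term and 44 to 304 when single libraries were left out. With the replicate block it gave 248, while the block gave 6809 calls (6218 without it) for H1.4 CFT relative to WT H1.4 and 5597 for H1.4 CFT against GFP. The block changed the call of Arc in H1.4 CFT against GFP and no other call of the 10 genes. The causes were not tested. Egr2, Egr4, Arc and Npas4 had the fewest reads, 291 to 534 each over all libraries. Variance within groups was 1.26 times that of counting for Egr2, near the limit that depth sets, and 7.94 times for Egr4, where the spread between libraries is the larger limit. The floor of 5 CPM in 3 libraries removed these 4 genes and gave no value for them.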
